A study of Mus musculus with 12 samples.

Results

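The GIMAP genes encode a family of GTPases named for their association with immunity, and mouse lymphocytes are their best known site of expression. The 8 members Gimap1, Gimap3, Gimap4, Gimap5, Gimap6, Gimap7, Gimap8 and Gimap9 were found by matching the Ensembl identifiers of the deposited count table to these symbols. They are 8 of 43432 genes in the table, and all 8 passed the filter on low counts that left 15449 genes for testing. RNA came from tumours grown from CR705, a cell line derived from mouse pancreatic cancer: 6 samples are labelled AHRKO and 6 WT. AHRKO denotes knockout of the aryl hydrocarbon receptor gene Ahr in the CR705 cells, and WT denotes CR705 cells without it. The labels name no compound, host strain, sex, age or time for any sample, and do not say which part of Ahr was removed or whether the knockout line is a single clone. The growth and treatment texts speak of cultured cells and test compounds, while the RNA text names tumours, so the samples are treated here as untreated tumours. A tumour also holds host leukocytes, vessels and fibroblasts, whose genotype the labels do not give. Nothing in the labels ties each sample to its own animal, so p-values measure the spread between these samples, part of which may be technical.

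GIMAP proteins sit on intracellular membranes, bind GTP through a shared AIG1 domain and control how long lymphocytes live. In mice, loss of Gimap5 or of Gimap1 leaves few mature lymphocytes, and in rats a Gimap5 mutation causes the lymphopenia of the diabetes-prone BB strain. Several members are also transcribed in endothelial cells, so a bulk tumour can hold more than a single source of their RNA.

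The family occupies a single cluster on chromosome 6 (GRCm38, the build called mm10), from 48647234 to 48770851, a span of 123618 bases that holds all 8 protein-coding genes. In chromosomal order they are Gimap8 (ENSMUSG00000064262, 48647234 to 48660875), Gimap9 (ENSMUSG00000051124, 48676129 to 48679114), Gimap4 (ENSMUSG00000054435, 48684549 to 48692060) and Gimap6 (ENSMUSG00000047867, 48701582 to 48708225). Then follow Gimap7 (ENSMUSG00000043931, 48718621 to 48724636), Gimap1 (ENSMUSG00000090019, 48739054 to 48743795), Gimap5 (ENSMUSG00000043505, 48746197 to 48754210) and Gimap3 (ENSMUSG00000039264, 48764464 to 48770851). Gimap3 and Gimap6 lie on the minus strand and the other six on the plus strand.

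All 8 members had a promoter of 300 bases (250 before to 50 after the gene's start) in the RefSeq table for GRCm38.p6, Gimap8 with 2 starts. A GAS motif, the STAT factor site, was searched as TTCNNNGAA, which reads the same on both strands. It occurred in 4 of the 8 members, that is in 4 of their 9 promoters, against 8.30% of 32851 promoters of the same length. Of the 2 starts of Gimap8 only the second had a match. Gimap3 and Gimap6, the members with the largest and the smallest fold change, are shown from the upstream end of the window. Gimap7 and Gimap8 are shown as windows of 30 bases around their match. Capitals mark the GAS motif.
Gimap3, chr6:48770848-48771101, minus strand: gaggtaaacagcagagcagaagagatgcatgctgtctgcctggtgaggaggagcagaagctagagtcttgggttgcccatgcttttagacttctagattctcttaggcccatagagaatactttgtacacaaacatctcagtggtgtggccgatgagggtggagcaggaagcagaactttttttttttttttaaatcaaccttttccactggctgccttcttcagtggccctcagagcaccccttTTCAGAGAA
Gimap6, chr6:48708245-48708494, minus strand: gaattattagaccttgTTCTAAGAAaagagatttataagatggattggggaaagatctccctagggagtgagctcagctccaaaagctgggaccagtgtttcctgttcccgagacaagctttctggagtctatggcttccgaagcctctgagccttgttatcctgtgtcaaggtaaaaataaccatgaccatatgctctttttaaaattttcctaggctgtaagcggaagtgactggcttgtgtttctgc
Gimap7, chr6:48718641-48718670, plus strand: agagtcctggtgcagtcagaTTCTTTGAAg
Gimap8, chr6:48647304-48647333, plus strand: aacctctttcTTCCTAGAAacatttggaaa

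The first base of the match lay 5 bases before the RefSeq start in Gimap3, 234 before it in Gimap6, 47 before the second start in Gimap8 and 40 after it in Gimap7. The core of the xenobiotic response element, the DNA word bound by AHR with its partner ARNT, was searched as GCGTG on both strands. It occurred in 2 of the 8 members, Gimap1 and Gimap9, and in 2 of the members' 9 promoters, against 32.4% of all promoters. These stretches are shown because Ahr is the gene named in the AHRKO label, with the core in capitals, which reads as CACGC on the plus strand in Gimap9.
Gimap1, chr6:48738914-48738943, plus strand: agaagatagagtGCGTGatttcatagagga
Gimap9, chr6:48675920-48675949, plus strand: ccattctgtcagCACGCggtcgccaggaat

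The RUNX motif TGTGGT occurred in 3 members (Gimap1, Gimap4 and Gimap7), against 16.8% of promoters. The ETS motif GGAAGT occurred in 4 members (Gimap1, Gimap5, Gimap6 and Gimap9), against 23.8%. An interferon-response-like motif, searched as GAAA, any 2 bases and GAAA, occurred in 0 members, against 3.44%. Counted by promoter, RUNX matched 3, ETS 4 and the interferon-response-like motif 0 of the members' 9 promoters. Both strands were searched for each, and 0 matches of different motifs overlapped in the members' promoters. Each match describes the letters in the window only, and no binding was measured.

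Library totals were 14772343 to 19944273 counts in AHRKO and 19293174 to 35881469 counts in WT. Ahr itself had 62.4, 93.8, 143, 75.0, 124 and 114 CPM (each count relative to its library's scaled total) in AHRKO replicates 1 to 6, against 114, 125, 112, 106, 110 and 101 CPM in WT replicates 1 to 6. Its log2 fold change of AHRKO over WT was -0.13 ± 0.17 (SE, edgeR's quasi-likelihood test, adjusted p = 0.606). Reads summed over the whole gene cannot check a deletion of unstated extent in tumours that also hold host cells. For the labelled tissue, pancreas, 3 of the 10 listed acinar cell genes, Cela2a, Amy2a5 and Ptf1a, had 0 counts in every library. Cela1, the only gene of that list with enough counts to be tested, had 7.52 to 49.3 CPM in AHRKO and 14.5 to 27.5 CPM in WT. AHRKO replicate 1 stood apart from the other AHRKO libraries: it had the highest summed CPM of the leukocyte, endothelium and fibroblast lists among all 12 libraries and the lowest of the epithelium list. The main fold changes and list medians are given below with and without it. The covariate fits and the values set against a score used all 12 libraries.

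Gimap transcripts were higher in AHRKO tumours than in WT tumours for 5 of the 8 members, namely Gimap1, Gimap3, Gimap4, Gimap5 and Gimap7, and the other three, Gimap6, Gimap8 and Gimap9, did not pass the test. By edgeR 0 members fell, and 0 were lower at an unadjusted p under 0.05, where all 8 were higher. Over all 15449 genes tested, 15.9% rose and 13.6% fell (edgeR's quasi-likelihood test, Benjamini-Hochberg adjusted p under 0.05). The median log2 fold change of the 8 members was 1.59, beside 0.02 over all genes tested. Without AHRKO replicate 1 the median of the members was 0.77 and 3 members rose, Gimap3, Gimap5 and Gimap7, where 19.1% of all genes tested rose. In a bulk sample, more cells that express a gene and more RNA per such cell cannot be told apart.

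Summed over the 8 members, AHRKO replicates 1 to 6 had 359, 61.9, 69.5, 77.5, 34.5 and 63.0 CPM, against 16.5, 51.5, 48.7, 33.7, 33.8 and 32.3 CPM in WT replicates 1 to 6. The mean was 111 ± 123 CPM in AHRKO and 36.1 ± 12.7 CPM in WT (SD, n = 6 each). AHRKO replicate 1 was far above every other library, AHRKO replicates 2, 3, 4 and 6 were above all 6 WT libraries, and AHRKO replicate 5 lay within the WT range. The same libraries stood at the ends of each member's range. AHRKO replicate 1 was the highest of all 12 libraries for 8 of 8 members, AHRKO replicate 5 the lowest AHRKO library for 8 of 8, and WT replicate 1 the lowest of all libraries for 8 of 8. The groups overlapped for every member: 0 of 8 were separated, where 13.4% of all genes tested had groups that did not overlap.

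**Figure D1:**
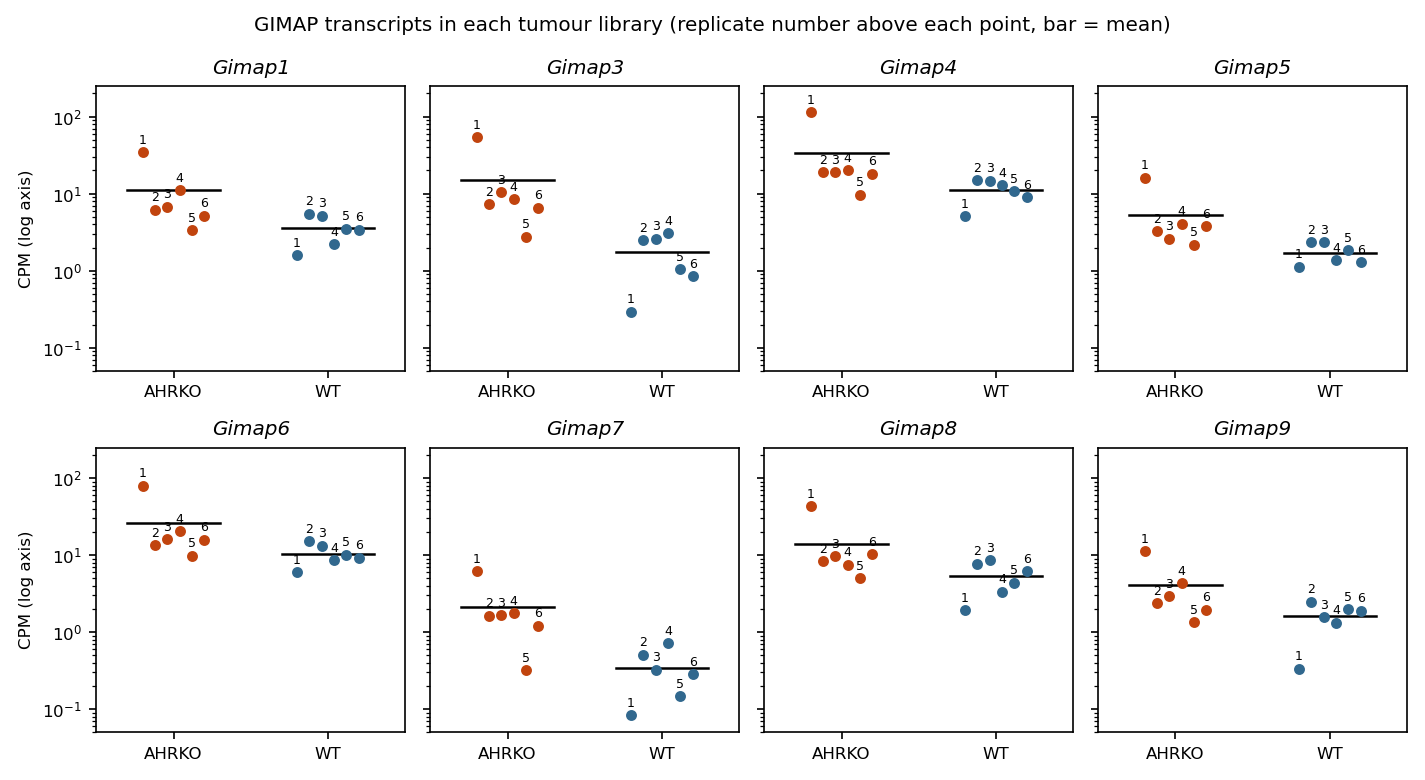
CPM (log axis) of each GIMAP gene, with 1 point for each of the 6 AHRKO and 6 WT libraries, the replicate number above the point and a bar at the group mean. AHRKO replicate 1 is the highest point in all 8 panels, AHRKO replicate 5 reaches into the WT range in all 8, and WT replicate 1 is the lowest point.

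Gimap1 and Gimap5 are the members best known for lymphocyte survival in mice. Gimap1, which mature T and B cells require, had 3.34 CPM in the lowest, 6.49 CPM at the median and 34.7 CPM in the highest AHRKO library, against 1.59, 3.47 and 5.50 CPM in WT. In 4 of 6 AHRKO libraries it was above all WT libraries. The log2 fold change of Gimap1 was 1.65 ± 0.54 (SE, edgeR, adjusted p = 0.0378), and 0.86 without AHRKO replicate 1, where it did not pass (adjusted p = 0.0756). The call was also lost without AHRKO replicate 4 or without WT replicate 1, 4, 5 or 6, with log2 fold changes of 1.49 to 1.66 and adjusted p-values of up to 0.0803.

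Gimap5, a protein of lysosomal membranes whose loss shortens T cell life, had 2.18, 3.52 and 16.2 CPM (lowest, median and highest library) in AHRKO, against 1.13, 1.61 and 2.37 CPM in WT. AHRKO replicate 5 was the only AHRKO library within the WT range, and the other five lay above all WT libraries. The log2 fold change of Gimap5 was 1.63 ± 0.48 (SE, edgeR, adjusted p = 0.0235), and 0.88 with an adjusted p of 0.0192 without AHRKO replicate 1. It did not pass without WT replicate 1, 4 or 6, with log2 fold changes of 1.53, 1.57 and 1.55 and adjusted p-values of up to 0.0522.

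Gimap3, a close relative of Gimap5 in mice that acts with it in T cell survival, had the largest fold change of the family. It had 54.3, 7.34, 10.4, 8.42, 2.76 and 6.58 CPM in AHRKO replicates 1 to 6, against 0.294, 2.48, 2.61, 3.07, 1.04 and 0.855 CPM in WT replicates 1 to 6. In 5 of 6 AHRKO libraries it was above all WT libraries, and AHRKO replicate 5 lay within the WT range. On the log2 scale it rose by 3.11 ± 0.75 (SE, edgeR, adjusted p = 0.00924), an 8.65-fold higher level, and by 2.04 (adjusted p = 0.0079) when AHRKO replicate 1 was left out. It passed in all 12 fits that each left out 1 library.

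Gimap7, whose human counterpart activates the GTPase of another family member, was the least abundant of the family with 270 counts over all libraries. It had 6.22, 1.64, 1.65, 1.76, 0.321 and 1.21 CPM in AHRKO replicates 1 to 6, against 0.0839, 0.513, 0.326, 0.715, 0.149 and 0.285 CPM in WT replicates 1 to 6. All AHRKO libraries but replicate 5 were above all WT libraries, and the lowest value in WT rests on 2 counts. On the log2 scale it rose by 2.60 ± 0.64 (SE, edgeR, adjusted p = 0.00997), a 6.06-fold higher level, and by 1.91 (adjusted p = 0.0107) when AHRKO replicate 1 was left out. Gimap7, too, passed in all 12 fits with 1 library left out.

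Gimap4, which in mouse T cells speeds the last steps of apoptosis, was the most abundant member. It had 9.70, 19.2 and 114 CPM in AHRKO (lowest, median and highest library), against 5.12, 11.9 and 15.1 CPM in WT, and 5 of 6 AHRKO libraries were above all WT libraries. Its log2 fold change was 1.56 ± 0.55 (SE, edgeR, adjusted p = 0.0485), and 0.61 without AHRKO replicate 1, where it did not pass (adjusted p = 0.0943). Gimap4 passed in 2 of the 12 fits with 1 library left out, those without AHRKO replicate 5 or 6. In the other fits, that is without AHRKO replicate 2, 3 or 4 or any WT library, the log2 fold change was 1.41 to 1.69 and the adjusted p 0.0514 to 0.0941. On all 12 libraries it did not pass with no filter on low counts (1.53, adjusted p = 0.0602) or with upper-quartile scaling (1.53, adjusted p = 0.0511), which left 4 members risen in each.

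The 3 members that did not pass the test had positive fold changes. Gimap6, which binds an ATG8 protein of the GABARAP group and is drawn to autophagosomes, had 9.83, 16.0 and 79.5 CPM in AHRKO, against 6.00, 9.74 and 15.3 CPM in WT. Its log2 fold change was 1.31 ± 0.48 (SE, edgeR, adjusted p = 0.0547). Gimap8, the longest protein of the family with repeated GTPase domains, had 5.01, 9.05 and 43.1 CPM in AHRKO, against 1.93, 5.32 and 8.66 CPM in WT, with a log2 fold change of 1.37 ± 0.53 (SE, edgeR, adjusted p = 0.068). Gimap9 had 1.35, 2.66 and 11.3 CPM in AHRKO, against 0.336, 1.74 and 2.48 CPM in WT, with 1.33 ± 0.54 (SE, edgeR, adjusted p = 0.0799). For Gimap8 and Gimap9 only 3 of 6 AHRKO libraries were above all WT libraries, and for Gimap6 it was 4. When AHRKO replicate 1 was left out, these log2 fold changes were 0.53 (Gimap6), 0.59 (Gimap8) and 0.69 (Gimap9), with adjusted p-values of 0.101, 0.193 and 0.21. When AHRKO replicate 5 was left out instead, all 3 passed, with 1.47 (Gimap6, adjusted p = 0.0301), 1.54 (Gimap8, 0.0412) and 1.51 (Gimap9, 0.0468), and Gimap6 also passed without AHRKO replicate 2 (1.44, adjusted p = 0.0499).

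Some reads could not be assigned with certainty. Gimap1 shares 1107 exon bases, or 36.0% of its exons, with Gimap1os on the opposite strand, and whether counting used strand is not given in the sources used here. Gimap1os had 88 counts over all libraries, of which 38 were in AHRKO replicate 1, beside 1677 counts for Gimap1. Gimap3 and Gimap5 share 190 stretches of 50 bases in their transcripts, 7.52% of those in Gimap3 and 4.53% of those in Gimap5. A read-through gene, Gm28053, which overlaps exons of Gimap1, Gimap5 and Gimap7, had 5 counts in all.

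Levels of different members were compared as CPM per kilobase of exon. In AHRKO, Gimap4 was first with 18.2 ± 21.6 CPM per kilobase, followed by Gimap6 with 7.41 ± 7.58 and Gimap3 with 5.81 ± 7.54 (SD, n = 6). Gimap8 (3.78), Gimap1 (3.65), Gimap9 (2.46), Gimap5 (1.29) and Gimap7 (0.918 CPM per kilobase) came after them, and no neighbours in this order differed beyond their SD between libraries. Within each library, Gimap4 was above Gimap6, Gimap6 above Gimap3, Gimap1 above Gimap9 and Gimap9 above Gimap5 in 6 of 6 AHRKO libraries. The other neighbours kept this order in 4 or 5 of 6. Without AHRKO replicate 1 the order was the same, and Gimap4 over Gimap6, Gimap6 over Gimap3 and Gimap9 over Gimap5 differed beyond their SD. In WT, Gimap4 was first with 6.15 ± 2.08 CPM per kilobase and Gimap6 next with 2.99 ± 0.951. Gimap8 (1.46), Gimap1 (1.16), Gimap9 (0.975), Gimap3 (0.669), Gimap5 (0.415) and Gimap7 (0.149) followed. In WT, Gimap4 over Gimap6, Gimap6 over Gimap8 and Gimap5 over Gimap7 differed beyond their SD, and the neighbours between Gimap8 and Gimap5 did not. Of the latter, Gimap8 was above Gimap1 in 6 of 6 WT libraries, and the others kept this order in 3 or 4 of 6. Gimap3 thus held rank 3 in AHRKO and rank 6 in WT.

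The make-up of the family's reads differed in the same direction. Gimap3 took 11.9 ± 2.76% of the summed CPM of the 8 members in AHRKO, from 8.01% to 15.1%, against 4.46 ± 2.64% in WT, from 1.78% to 9.09% (SD, n = 6 each). In 5 of 6 AHRKO libraries its share was above all WT libraries. Gimap7 took 1.98 ± 0.609% in AHRKO and 0.936 ± 0.618% in WT. The share of Gimap6 was 24.6 ± 2.58% in AHRKO and 29.6 ± 3.67% in WT, below all WT libraries in 4 of 6 AHRKO libraries. Gimap4 took 28.8 ± 2.22% in AHRKO and 31.5 ± 3.68% in WT, with overlapping ranges. These shares do not depend on the scaling between libraries. AHRKO replicate 1 had the highest Gimap3 share, 15.1%, but AHRKO replicate 3 had 15.0%. Over AHRKO replicates 2 to 6 the Gimap3 share was 11.2 ± 2.53% (SD). For Gimap7, AHRKO replicate 1 had 1.73%, inside the range of the other AHRKO libraries, and for Gimap4 31.8%, the highest in AHRKO.

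**Figure D2:**
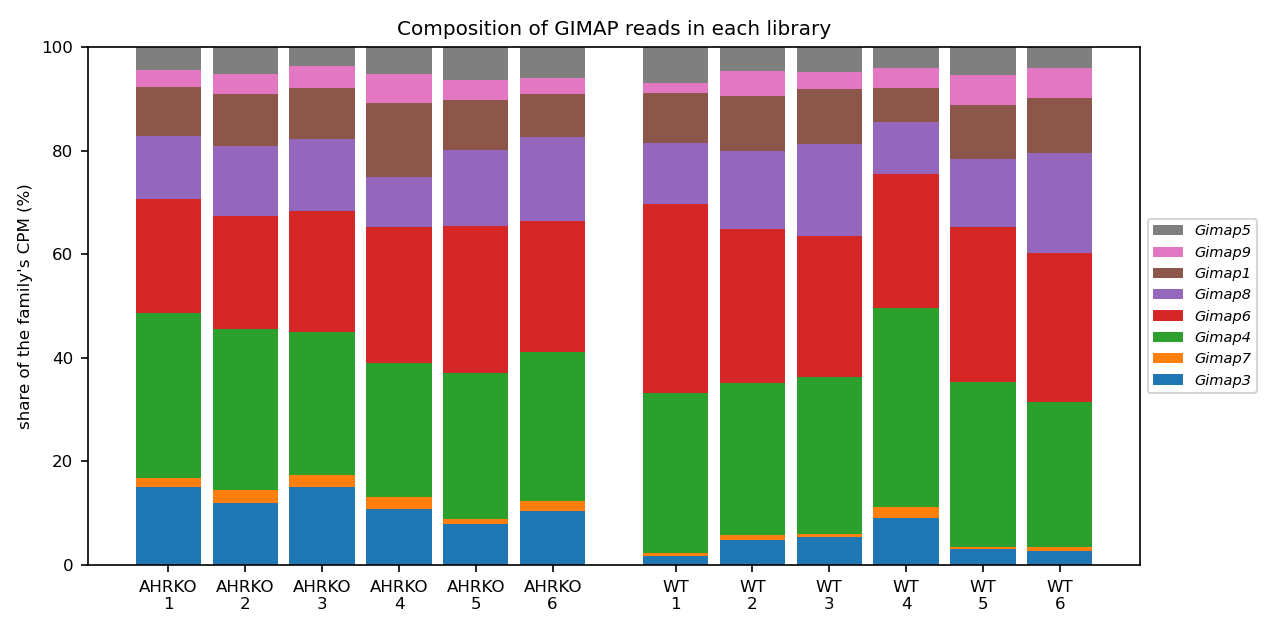
Share of the summed CPM of the 8 GIMAP genes (%, stacked to 100) taken by each gene, with 1 bar for each of the 6 AHRKO and 6 WT libraries. The Gimap3 segment at the base takes 8.01% to 15.1% in AHRKO and 1.78% to 9.09% in WT.

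Log2 ratios between members were tested in all 28 pairs with exact permutation, two-sided, using the 924 ways to assign the 12 libraries. In 11 pairs p was under 0.05, and 10 of these pairs hold Gimap3 or Gimap7. After Benjamini-Hochberg adjustment over the 28 pairs, 0 passed, with 0.0606 the smallest adjusted p. The log2 ratio of Gimap3 to Gimap4 ran from -1.78 to -0.88 in AHRKO and from -3.73 to -2.05 in WT, so that the groups did not overlap. This ratio was 1.59 higher in AHRKO (95% interval 0.95 to 2.23, exact permutation p = 0.00216, the smallest possible). The log2 ratio of Gimap3 to Gimap6 was 1.74 higher in AHRKO (0.84 to 2.63, exact permutation p = 0.00433), and that of Gimap4 to Gimap7 differed by -0.96 (-1.58 to -0.34, exact permutation p = 0.0108). Both have an adjusted p of 0.0606. The 1 pair with a p under 0.05 that holds neither Gimap3 nor Gimap7 was Gimap5 to Gimap6, 0.30 higher in AHRKO (0.05 to 0.55, exact permutation p = 0.0281, adjusted p = 0.0788), with 5 of 6 AHRKO libraries above all WT libraries. The log2 ratio of Gimap1 to Gimap6 differed by 0.33 (-0.01 to 0.66, exact permutation p = 0.0563, adjusted p = 0.121). Among the smallest differences, the log2 ratio of Gimap4 to Gimap8 differed by -0.01 (-0.52 to 0.49) and that of Gimap1 to Gimap5 by 0.03 (-0.45 to 0.50). These intervals do not show that the members act alike. Without AHRKO replicate 1, over 462 assignments, 9 pairs had a p under 0.05 and the smallest adjusted p was 0.0848, for Gimap3 to Gimap4 among others (difference 1.54). Gimap3 and Gimap5 share transcript stretches, and their own log2 ratio differed by 1.44 (0.42 to 2.45).

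Leukocyte genes were higher in the same tumours. All 16 pan-leukocyte genes tested rose, with a median log2 fold change of 1.67, and 16 rose without AHRKO replicate 1. Their summed CPM ran from 609 to 3666 in AHRKO and from 355 to 656 in WT. Of 20 T cell genes, 18 rose (median 2.70), of 11 natural killer cell genes tested 8 rose (median 2.62) and of 6 B cell genes tested 5 rose (median 2.38). Of 14 macrophage and monocyte genes 11 rose (median 1.41). Over all genes tested 15.9% rose. With AHRKO replicate 1 left out, the median was 1.06 for pan-leukocyte, 1.83 for T cell, 1.75 for natural killer cell, 1.78 for B cell and 0.88 for macrophage and monocyte genes. In that fit 18 T cell, 7 natural killer cell, 5 B cell and 9 macrophage and monocyte genes rose, where 19.1% of all genes tested rose. By edgeR 0 genes of these 5 lists fell, and 0 were lower at an unadjusted p under 0.05. The T cell list summed to 38.6 to 465 CPM in AHRKO and 18.1 to 47.3 CPM in WT, with AHRKO replicate 1 highest and AHRKO replicate 5 lowest among AHRKO libraries.

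Among single markers, Cd3e, which encodes a CD3 subunit of the antigen receptor of T cells, had 1.99, 4.88 and 22.0 CPM in AHRKO (lowest, median and highest library), against 0.126, 0.776 and 1.45 CPM in WT. All 6 AHRKO libraries were above all WT libraries, unlike for any GIMAP gene. The log2 fold change of Cd3e was 3.05 ± 0.62 (SE, edgeR, adjusted p = 0.0042), and 2.30 without AHRKO replicate 1 (adjusted p = 0.00219). Cd6 (2.63), Cd28 (2.12), the natural killer genes Klrk1 (3.24), Nkg7 (3.75), Il2rb (2.62) and Ncr1 (2.84) and the B cell genes Cd22 (2.21), Spib (2.72), Cxcr5 (1.04) and Cd79b (2.99) rose too. So did the pan-leukocyte genes Cd52 (2.33), Coro1a (2.02), Rac2 (2.02) and Itgb2 (1.75) and the macrophage genes Fcgr1 (1.81), Ccr2 (1.91), C1qc (1.60) and C1qb (1.59), all as log2 fold changes. Leaving out AHRKO replicate 1 gave lower log2 fold changes for these genes, all of which still passed: Cd6 1.88, Cd28 1.61, Klrk1 2.18, Nkg7 2.89, Il2rb 1.75, Ncr1 1.89, Cd22 1.69, Spib 1.88, Cxcr5 0.95 and Cd79b 2.17. Cd52 had 1.86, Coro1a 1.51, Rac2 1.45, Itgb2 1.23, Fcgr1 1.27, Ccr2 1.36 and C1qc 1.24 in that fit.

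Endothelial genes, the other known site of GIMAP expression, did not pass edgeR's test: of 16, 0 rose and 0 fell, and 0 had an unadjusted p under 0.05. Over all genes tested 15.9% rose and 13.6% fell. DESeq2 and limma-voom, which was always run with sample quality weights, called 0 of the 16. The endothelial genes had a median log2 fold change of 0.50, and of -0.08 without AHRKO replicate 1. Plvap, of fenestrated vessels, had 0.96 ± 0.49 (SE, edgeR, adjusted p = 0.158), and Tek 0.82, Eng 0.73 and Flt1 0.40. Without AHRKO replicate 1 the log2 fold change was 0.18 for Plvap, 0.15 for Tek, 0.11 for Eng and 0.30 for Flt1. Their summed CPM ran from 725 to 3246 in AHRKO and from 614 to 1315 in WT, with 1099 CPM the highest among AHRKO replicates 2 to 6. Of 12 fibroblast genes, 0 rose and 0 fell by edgeR (median -0.28), and 0 had an unadjusted p under 0.05. With its quality weights, which can give a deviant library less weight, limma-voom called 4 lower, beside 2948 of all 15449 genes tested. In edgeR's fit without AHRKO replicate 1, 7 fell (median -0.66), where 2778 of 15606 genes tested fell. Col3a1, Postn, Pdgfra and Fap had log2 fold changes of -0.37, -0.34, -0.38 and -0.43, and all 4 fell in the fit without AHRKO replicate 1 (-0.98, -0.68, -0.91 and -0.78). Of 12 epithelial genes, 0 rose and 0 fell by edgeR (median -0.73), and 4 were lower at an unadjusted p under 0.05. DESeq2 called 2 of them lower, beside 2505 over all genes tested. With AHRKO replicate 1 left out, edgeR called 1 higher and 1 lower (median -0.51), the lower being Krt19 (-0.81, adjusted p = 0.00337). In that fit 19.1% of all genes tested rose and 2778 of 15606 fell, so these 2 calls are no result about the list. The epithelial genes summed to 706 to 4892 CPM in AHRKO and 3509 to 5015 CPM in WT, AHRKO replicate 1 having the lowest sum. Muc1 (-1.58), Krt19 (-1.04), Cldn7 (-1.46) and Ocln (-1.45) had the smallest p-values on all 12 libraries and did not pass. The acinar list had a single tested gene, Cela1 (-0.01).

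**Figure D3:**
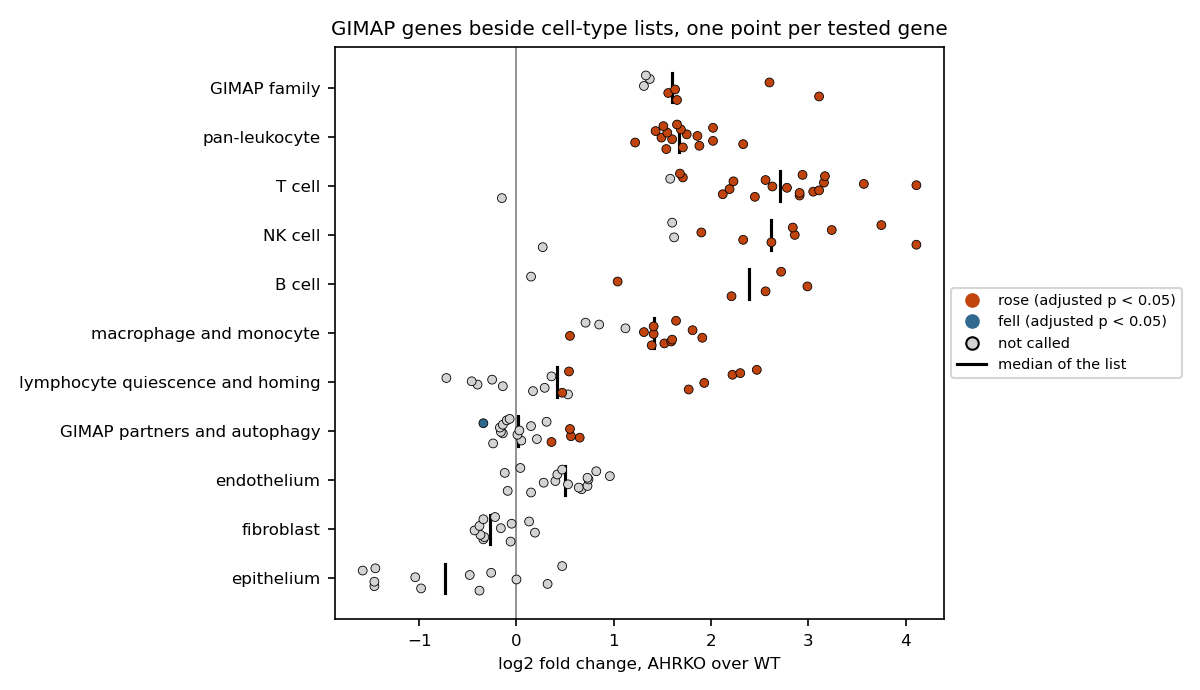
Log2 fold change of AHRKO over WT for each tested gene (points) of the GIMAP family and of 10 other lists, with the list median as a line; colours mark genes that passed the test. The GIMAP median of 1.59 lies near that of the pan-leukocyte genes (1.67), below the T cell genes (2.70) and above the endothelial genes (0.50).

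Set against the pan-leukocyte score of the same library, that is the list's average on the log2 CPM scale, Gimap3 was on average 1.22 higher in AHRKO than in WT on the log2 scale, and Gimap7 was 0.59 higher. Gimap6 was 0.51 lower (a difference of -0.51), with 5 of 6 AHRKO libraries below all WT libraries, and Gimap4 (-0.37), Gimap8 (-0.36), Gimap9 (-0.36), Gimap5 (-0.21) and Gimap1 (-0.19) were lower by less. Against the T cell score, Gimap4 differed by -1.01 with 6 of 6 AHRKO libraries below all WT libraries, and Gimap6 by -1.16 with 4 of 6 below. Gimap3 differed by 0.58 and Gimap7 by -0.05 against the T cell score. The genes of both scores mostly rose themselves (median log2 fold changes 1.67 and 2.70), so a gene that rose less is lower against the score. How many of all genes tested would be separated in this way was not computed. These are descriptions with no test.

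When the pan-leukocyte score entered the fit as a covariate, 0 members rose and 2 fell, where 12.4% of all genes tested rose and 13.7% fell. Gimap4 had a log2 fold change of -0.83 ± 0.23 (SE, edgeR, adjusted p = 0.0198) and Gimap6 of -0.71 ± 0.19 (adjusted p = 0.0191). Gimap3 had 0.33 (adjusted p = 0.669) and Gimap7 0.36 (adjusted p = 0.675). With the T cell score as the covariate, 0 members rose and Gimap4 fell, with -0.94 ± 0.24 (SE, edgeR, adjusted p = 0.018), where 10.3% of all genes tested rose and 11.4% fell. Gimap3 had 0.02 (adjusted p = 0.977) and Gimap7 0.06 (adjusted p = 0.93) in that fit. With the endothelium score as the covariate, 7 of 8 members rose, all but Gimap9 (0.77, adjusted p = 0.0686), where 19.5% of all genes tested rose. Gimap3 had 2.16 (adjusted p = 0.0024), Gimap7 2.02 (adjusted p = 0.00549) and Gimap6 0.65 (adjusted p = 0.00226). The scores come from the same libraries and differ between the groups, so these fits describe what each score leaves.

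**Figure D4:**
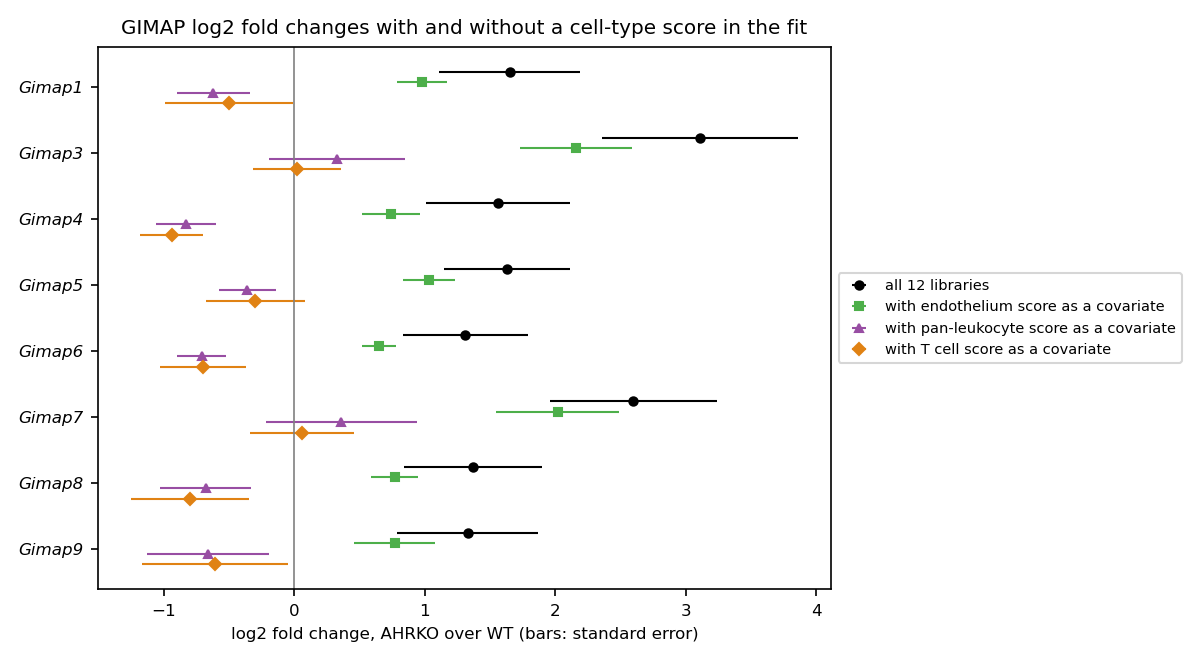
Log2 fold change of AHRKO over WT for each GIMAP gene with its standard error, from the fit on all 12 libraries (black circles) and from fits with an endothelium (squares), pan-leukocyte (triangles) or T cell (diamonds) score as a covariate. All 8 genes lie above 0 without a covariate and with the endothelium score, and 6 of the 8 lie below 0 with either leukocyte score.

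Of 18 known partners of the family and autophagy genes, 4 rose and 1 fell, with a median log2 fold change of 0.02, and 4 rose and 1 fell without AHRKO replicate 1 (median 0.06). Over all genes tested 15.9% rose and 13.6% fell, and shares this near the background are no result about the list. Bak1 and Bax, the pore-forming proteins of apoptosis, had log2 fold changes of 0.65 ± 0.11 (SE, edgeR, adjusted p = 0.0019) and 0.56 ± 0.14 (adjusted p = 0.0117). Gabarapl1, an ATG8 protein of the group that Gimap6 binds, had 0.55 ± 0.14 (adjusted p = 0.0117), and Atg5, part of the ATG8 conjugation machinery, had 0.36 ± 0.12 (adjusted p = 0.0376). Map1lc3b, another ATG8 protein, fell, with 188, 208 and 223 CPM in AHRKO (lowest, median and highest library) against 217, 277 and 297 CPM in WT (log2 fold change -0.34, adjusted p = 0.0143). Gabarapl2 (-0.17) and the anti-apoptotic Bcl2 (0.01) did not pass the test. These genes are transcribed in most cells of a tumour.

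Of 16 genes of lymphocyte quiescence and homing, 7 rose and 0 fell (median log2 fold change 0.42, with 1 gene lower at an unadjusted p under 0.05). Over all genes tested 15.9% rose and 13.6% fell. In the fit that left out AHRKO replicate 1, 7 rose and 1 fell (median 0.18), where 19.1% of all genes tested rose and 2778 of 15606 fell. The gene that fell there was Lef1 (-1.09, adjusted p = 0.0176), which had -0.72 on all 12 libraries and did not pass (adjusted p = 0.171). Satb1, a chromatin organiser of T cells, had a log2 fold change of 2.22 ± 0.61 (SE, edgeR, adjusted p = 0.0163), and 1.23 without AHRKO replicate 1 (adjusted p = 0.0127). Txk, a T cell kinase, had 2.47 ± 0.54 (adjusted p = 0.0056), and 1.74 without AHRKO replicate 1 (adjusted p = 0.00188), with all 6 AHRKO libraries above all WT libraries. Tcf7, the T cell transcription factor TCF-1, had 44.4, 55.0 and 62.3 CPM in AHRKO, against 32.2, 37.7 and 40.0 CPM in WT, with 0.54 ± 0.09 (adjusted p = 0.00157). AHRKO replicate 1, highest for every GIMAP gene and for Cd3e (22.0 CPM), was the lowest AHRKO library for Tcf7 (44.4 CPM). Which cells of the tumours carried Tcf7 RNA was not tested. Il7r (1.93), Ccr7 (1.77) and Btg1 (0.47) also rose, and still passed without AHRKO replicate 1 (1.12, 0.92 and 0.35), while Klf2 (-0.46), S1pr1 (0.36) and Foxo1 (-0.14) did not pass.

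Around the cluster, the nearest protein-coding genes before it, AI854703 (1.09, adjusted p = 0.0974), Zfp775 (0.29), Repin1 (0.59) and Rarres2 (0.64), did not pass the test as log2 fold changes of AHRKO over WT, nor without AHRKO replicate 1 (0.62, 0.16, 0.10 and 0.24). After it, Tmem176b, a membrane protein of macrophages and dendritic cells, had 190, 222 and 252 CPM in AHRKO (lowest, median and highest library), against 81.2, 127 and 140 CPM in WT. Its log2 fold change was 0.88 ± 0.13 (SE, edgeR, adjusted p = 0.000646), and its partner Tmem176a had 0.90 ± 0.17 (adjusted p = 0.00251), and both passed without AHRKO replicate 1. For both, all 6 AHRKO libraries were above all WT libraries. Aoc1 with 21 counts and 1600015I10Rik with 7 counts were not tested. Over the 798 genes tested on chromosome 6, 150 rose and 88 fell, with a median log2 fold change of 0.03. Over all 15449 genes tested, 2451 (15.9%) rose and 2106 (13.6%) fell, with a median of 0.02. The chromosome was not tested against the rest.

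**Figure D5:**
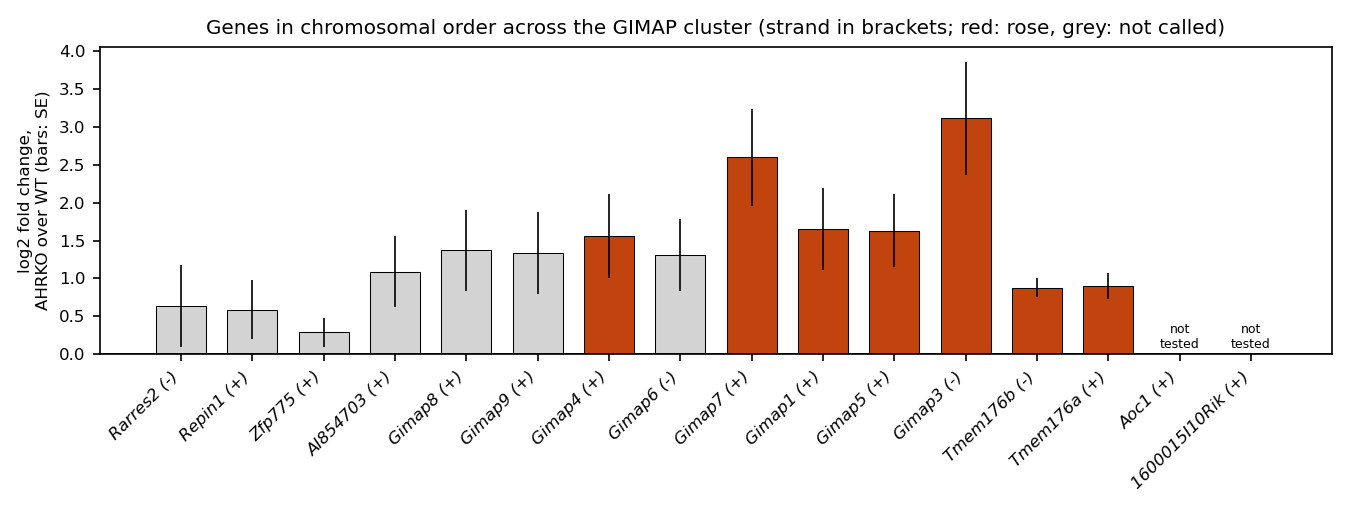
Log2 fold change of AHRKO over WT with its standard error for the 8 GIMAP genes and the 4 nearest protein-coding genes on each side, in chromosomal order with the strand in brackets; red bars passed the test, grey bars did not. Gimap3 (3.11) and Gimap7 (2.60) are the tallest, no neighbour before the cluster passed, and Tmem176b (0.88) and Tmem176a (0.90) after it did.

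Within the groups, the genes whose log2 CPM moved most like the mean of the 8 members over the 12 libraries (group means subtracted) were Armcx2 (r = 0.99), then Bhlhb9, Susd3, Rinl, Fli1, Tacc1, Gpx7, Armcx1, Lmo2 and Prickle2 (r = 0.98 each). Leaving out AHRKO replicate 1 gave 0.94 to 0.97 for these correlations. Of the 10, Rinl (log2 fold change 1.57, adjusted p = 0.0158) and Lmo2 (1.45, adjusted p = 0.0189) rose in edgeR's test, with 1.00 (adjusted p = 0.0127) and 0.88 (adjusted p = 0.0143) without AHRKO replicate 1. Susd3 (1.41), Fli1 (0.70), Prickle2 (0.19), Tacc1 (0.08), Bhlhb9 (0.07), Gpx7 (-0.01), Armcx1 (-0.16) and Armcx2 (-0.23) did not pass. In the fit without AHRKO replicate 1, Armcx1 (-0.70, adjusted p = 0.02) and Armcx2 (-0.80, adjusted p = 0.0149) fell. By list, the median r was 0.94 for pan-leukocyte, 0.92 for macrophage and monocyte, 0.92 for endothelial, 0.90 for T cell, 0.89 for fibroblast, 0.79 for natural killer, 0.73 for B cell and 0.68 for lymphocyte quiescence and homing genes, against -0.70 for epithelial genes and -0.04 for all other genes tested. Without AHRKO replicate 1 it was 0.85 for pan-leukocyte, 0.89 for macrophage and monocyte, 0.79 for endothelial, 0.76 for T cell, 0.76 for fibroblast, 0.55 for natural killer, 0.57 for B cell and 0.25 for lymphocyte quiescence and homing genes, and -0.23 for epithelial genes. The libraries share their tissue composition, and these correlations are a description.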

How the data were processed

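Poly-A-selected RNA from 12 tumour samples (6 AHRKO, 6 WT) was sequenced on an Illumina instrument, per the labels' protocols. The authors deposited unnormalized counts of reads for each gene. The submitters' processing notes name the build mm10 and the tools HISAT2, SAMtools, HTSeq and DESeq2. How reads were counted, on which annotation and with or without strand, is not stated in what was used here. Symbols and coordinates came from GENCODE release M21 and the reference name tables: 42548 genes matched and 884 did not, and at least 99.9% of each library's counts matched.

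Genes were kept by filterByExpr and libraries scaled by TMM. The comparison of AHRKO with WT ran over all 15449 genes with edgeR 4.0.16's quasi-likelihood test in R 4.3.3, two-sided, Benjamini-Hochberg adjusted, threshold 0.05; standard errors follow from the fold change and F value. CPM use TMM-scaled totals, and logarithms a prior count of 2. Alternatives used limma-voom with sample quality weights (limma 3.58.1), DESeq2 1.42.0, other scalings and filters, covariates, a replicate block and each library left out. The test was tried on simulated counts. No pair of libraries agreed within sampling noise (lowest chi-squared per degree of freedom 13.6). Intervals of ratios are 95% intervals over libraries, and depth covers counting error only, since reads carry no molecular identifiers.

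Named genes were the members, up to 4 genes of smallest p per list, the 10 genes most like the family, 4 neighbours on each side and Ahr, of which some are not reported here; Atg5, Gabarapl2, Bcl2, Il7r, Ccr7, Btg1, Klf2, S1pr1 and Foxo1 were added after their values were seen. The members and lists were chosen with earlier results of these data known.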

Additional observations from a re-analysis of the deposited data

Results flagged for a closer look

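Within the 6 AHRKO libraries, AHRKO replicate 1 stood far from the others in CPM for every member. The gap to its nearest neighbour, divided by the range of the group, was 0.752 for Gimap1, 0.851 for Gimap3, 0.902 for Gimap4 and 0.863 for Gimap5. It was 0.849 for Gimap6, 0.756 for Gimap7, 0.862 for Gimap8 and 0.702 for Gimap9, and 0.868 for the summed CPM of the 8 members, each above Dixon's critical value for 6 samples. The same library was highest in the endothelium score (0.74) and lowest in the epithelium score (0.651), both taken as mean log2 CPM. For the members the ratio was taken on CPM, where a high library stands out more than on a log2 scale. It was not computed on log2 CPM, where fewer members may be flagged. Chance flags about 1 in 20 groups of normally distributed values, which CPM need not be. The members share this library, so these flags are not independent of each other. No WT library was flagged for any member.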

How the results depend on the processing

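In the fits without a covariate, every member kept a positive fold change under each scaling, filter, tool and left-out library. Gimap7 passed in 18 of 18 such fits and Gimap3 in 18 of 19. Leaving out 1 library at a time gave 2 to 8 members risen, with 2 without WT replicate 1, 4 or 6, 3 without AHRKO replicate 1 or 4 or WT replicate 5, and 8 without AHRKO replicate 5. The number risen was 7 with DESeq2, which gave no adjusted p for Gimap4, and 0 with the T cell or the pan-leukocyte score as a covariate. The number fallen was 1 with the T cell score and 2 with the pan-leukocyte score. With the T cell score the log2 fold changes were -0.50 (Gimap1), -0.94 (Gimap4), -0.30 (Gimap5), -0.70 (Gimap6), -0.80 (Gimap8) and -0.61 (Gimap9), and with the pan-leukocyte score -0.62, -0.83, -0.36, -0.71, -0.68 and -0.66; the cause was not tested. All genes risen numbered 2451 of 15449 on all 12 libraries, 1822 to 2980 with 1 library left out (2980 of 15606 without AHRKO replicate 1), 3005 with DESeq2 and 1586 with the T cell score. Nothing in the labels says that replicate numbers pair the samples. With group means subtracted, correlations of same-numbered libraries ran from -0.47 to 0.03, and 0 AHRKO libraries correlated best with the WT library of their own number. Such correlations cannot settle whether the samples were paired. With the replicate block, 1 member rose, and over all genes 1115 rose and 1241 fell. Among genes near 0, signs turned for Bhlhb9 (-0.34 with limma-voom, -0.18 with the block, -0.49 to 0.20 with a library left out), Tacc1 (-0.09 with limma-voom, -0.17 to 0.18), Prickle2 (-0.46 with limma-voom, -0.31 with the block, -0.65 to 0.37), Ahr (0.01 with limma-voom), Cela1 (-0.47 to 0.16) and Gpx7 (-0.48 to 0.13). Depth limits Gimap7 most, which the stricter filter on low counts left out.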
